A study of Homo sapiens
Mus musculus and Homo sapiens with 2 samples.

Results

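The IER genes here are 4 genes with IER symbols, for immediate early response, in the gene annotation of the A549 sample. They are IER2 (ENSG00000160888.6), IER3 (ENSG00000137331.11), IER5 (ENSG00000162783.8) and IER5L (ENSG00000188483.6). The antisense gene IER3-AS1, also in that annotation, is not one of them. The 4 genes were chosen by symbol, with earlier results of these data known, and are 4 of 43167 annotated genes. The sample is A549, a human lung adenocarcinoma line, measured with sci-fate, a single-cell assay that tells RNA made during a short labelling window from older RNA. Cells were kept for 2, 4, 6, 8 or 10 h in dexamethasone, a synthetic glucocorticoid, and the 0 h cells are the untreated time, for which the protocol gives the ethanol vehicle. All 6 cultures received 200 µM of the uridine analog 4-thiouridine (S4U) for the last 2 h. The protocol gives 100 nM dexamethasone and a label of the sample gives 101 nM. There was 1 culture per time, so cells were never counted as replicates. A second sample is a mixture of human HEK293T kidney and mouse NIH/3T3 fibroblast cells. Its cells had 200 µM S4U for 6 h or no S4U, each with iodoacetamide or with no chemical treatment. The cells given both S4U and iodoacetamide gave the same genes in 2 further lines, and the other groups gave the background of the new RNA call.

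Immediate early genes are switched on by growth factors, serum or stress without the need for newly made protein, mainly through serum response factor, ternary complex factors, AP-1, CREB and NF-κB, and their transcripts are typically short-lived. IER2 is a nuclear protein induced by serum and growth factors. IER3, also called IEX-1, is induced by stress and NF-κB signalling and acts on apoptosis and on ERK signalling. IER5 binds the phosphatase PP2A and promotes the activity of HSF1, the heat shock transcription factor, and IER5L is its close relative. IER2, IER5 and IER5L share an N-terminal IER domain, and IER3 is a separate protein that has the name only. Glucocorticoids act through the glucocorticoid receptor, which raises genes such as TSC22D3 and PER1 and can counter AP-1 and NF-κB.

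The relation between the 4 genes can be read from the start of their coding sequences. The first 150 coding bases of IER2, IER5 and IER5L are shown because they hold the start of the shared domain. They come from the GENCODE 29 transcripts, 5′ to 3′, with capitals at the 82 positions where all 3 have the same base.
IER2: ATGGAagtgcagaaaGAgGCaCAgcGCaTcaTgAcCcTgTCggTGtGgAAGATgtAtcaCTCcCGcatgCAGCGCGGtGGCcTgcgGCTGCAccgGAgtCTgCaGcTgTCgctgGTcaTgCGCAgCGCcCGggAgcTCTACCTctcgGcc
IER5: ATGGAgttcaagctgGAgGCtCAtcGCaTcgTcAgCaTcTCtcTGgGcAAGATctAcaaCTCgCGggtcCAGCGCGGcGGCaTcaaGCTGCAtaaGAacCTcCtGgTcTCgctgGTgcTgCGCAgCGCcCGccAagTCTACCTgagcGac
IER5L: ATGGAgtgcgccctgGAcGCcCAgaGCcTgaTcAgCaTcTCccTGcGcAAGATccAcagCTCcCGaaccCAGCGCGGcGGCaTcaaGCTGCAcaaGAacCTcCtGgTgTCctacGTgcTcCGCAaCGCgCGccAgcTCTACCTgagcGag
Compared base by base without gaps, IER5 and IER5L were identical at 79.3% of these 150 positions, IER2 and IER5 at 66.7% and IER2 and IER5L at 60.0%. IER3 shared 32.7% with IER5, 34.0% with IER2 and 36.7% with IER5L over the same length.

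IER2 (chromosome 19, plus strand), IER5 (chromosome 1, plus strand) and IER5L (chromosome 9, minus strand) have a single exon, as do 5.91% of the 19675 genes with a coding transcript in GENCODE 29. IER3 (chromosome 6, minus strand) has 2 exons. The transcripts run over 2934, 1244, 4188 and 2711 bases for IER2, IER3, IER5 and IER5L, beside a median of 2732 over all genes, so IER3 is the short one of the 4. The pentamer ATTTA is the core of AU-rich elements, which shorten the life of many immediate early transcripts. It was counted in the 3′ UTR on the transcript strand only, with overlapping matches counted. IER3 held 6 in 737 bases (8.14 per kb), more per kb than 98.3% of 16044 genes. IER5 held 10 in 3013 bases (3.32 per kb), and IER5L held 3 in 1286 bases (2.33 per kb). The 1050 bases of the IER2 3′ UTR held 0. The median gene had 1.74 per kb, and 73.3% of genes had at least 1 match. The windows of 30 bases below hold the densest stretch in each of the 3 genes with a match, with ATTTA in capitals.
IER3: gctcctaattaatATTTAtatgtATTTAtg
IER5: tATTTATTTATTTATTTAattataaaaagt
IER5L: tcagattgtttaaATTTAtaatcttaataa
The IER5 window holds 4 overlapping matches in a row. These are descriptions of the letters, and no measurement here bears on whether the sites act.

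The 6 cultures held 1045 to 1446 cells, 28870594 to 43084614 whole counts and 5865326 to 9718958 new counts. The 2 samples shared 0 cell names. New counts were 20.3% to 22.6% of whole counts. Whole minus new counts, called pre-existing RNA here, also hold new molecules that were not called new. The A549 markers, 10 genes such as KRT8, KRT18 and AKR1B10, summed to 25902 to 31987 counts per 1000000 (CPM) in treated cultures and 25959 CPM at 0 h. Of the fibroblast markers 4 of 6 were under 1 CPM (COL1A2, DCN, LUM and PDGFRB), of the blood markers 3 of 4 (CD3E, LYZ and PTPRC), and both measured endothelial markers (CDH5 and VWF) were under it. Of the glucocorticoid-induced genes, 40 in all, 35 rose in new RNA and 19 in whole RNA, with 0 falls, where 3.82% and 0.603% of all genes tested rose. That list was chosen with earlier results of these data known, so its rises are a description and not a test of the treatment.

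Newly made molecules dominated all 4 genes. Over all A549 cells, 83.4% of IER5 counts were new (exact Clopper-Pearson 95% interval 82.2 to 84.5, 4048 whole counts). The share was 74.3% for IER2 (72.0 to 76.5, 1478 counts), 70.9% for IER3 (70.0 to 71.9, 8913 counts) and 62.8% for IER5L (61.6 to 63.9, 7073 counts). All intervals cover counting error only. Among the 11527 genes with at least 1000 whole counts the median share was 26.3% and the 90th percentile 61.1%. IER5 ranked 22nd from the highest, IER2 253rd, IER3 432nd and IER5L 1017th. A high share was not particular to the IER genes. In the 50 further immediate early genes tested in new RNA, listed below, it ran from 34.2% (JUND) to 87.3% (ID3). S4U is seen at U bases, and the last 300 bases of the transcripts hold 25.3% T for IER2, 25.7% for IER3, 36.0% for IER5 and 34.0% for IER5L, against a median of 29.7% over genes. The part of base content in these shares was not tested.

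The new share of IER2 and IER3 was lowest at 2 h. By hour from 0 to 10 h it was 79.4%, 58.7%, 67.8%, 75.7%, 72.1% and 75.4% for IER2. For IER3 it was 73.3%, 62.1%, 67.8%, 71.1%, 72.9% and 74.9%. The 2 h intervals (49.6 to 67.4 for IER2, 59.5 to 64.6 for IER3) lay below the 0 h intervals (75.7 to 82.7 and 71.8 to 74.7). IER5 stayed between 81.9% and 85.1%, with overlapping intervals at every hour. IER5L lay between 58.8% and 65.4%, and its 2 h value was also the lowest, with an interval (55.6 to 62.0) that overlapped the one at 0 h (61.0 to 64.9). With 1 culture per time no single time can be tested. The model of new against pre-existing RNA tests all treated cultures together against 0 h.

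**Figure D1:**
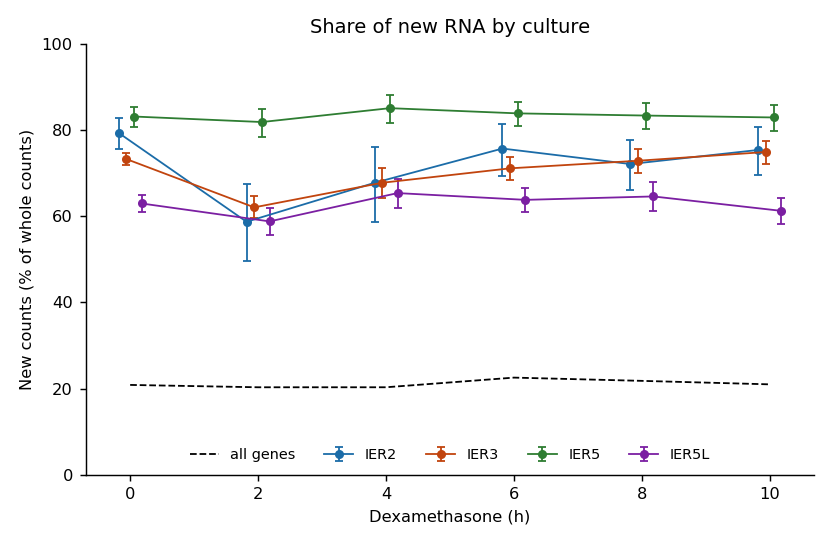
New counts as a percentage of whole counts of each IER gene (y axis) by hours of dexamethasone (x axis), with exact 95% binomial intervals for counting error. The dashed line is the same percentage over all genes, at 20.3% to 22.6%, below all 4 genes at every hour, and IER2 and IER3 are lowest at 2 h.

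Levels of new RNA are given as CPM of all new counts of the culture, with exact Poisson 95% intervals where stated. IER3 had 381.8, 121.1, 86.1, 82.4, 94.5 and 88.2 new CPM at 0, 2, 4, 6, 8 and 10 h. Every treated culture was below the 0 h culture, and the 2 h culture (113 to 129) lay above the later treated ones, whose intervals overlapped. IER5L had 217.9, 76.8, 87.3, 72.2, 69.7 and 72.3 new CPM in the same order. Each interval of its treated cultures overlapped its neighbour in rank, and all lay under the 0 h interval (207 to 229). The 4 h interval (79.9 to 95.2) lay above those of 6 h (67.0 to 77.8), 8 h (63.9 to 76.0) and 10 h (66.7 to 78.3).

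IER2 had 60.5, 10.2, 14.0, 16.1, 23.4 and 21.8 new CPM from 0 to 10 h. Its lowest level was in the 2 h culture (74 new counts, 8.01 to 12.8 CPM), at 16.9% of the 0 h level (13.0 to 21.6). The level was 38.7% of 0 h in the 8 h culture (32.3 to 46.3) and 36.1% in the 10 h culture (30.2 to 42.9). In rank order from 2 to 4, 6, 10 and 8 h, the intervals of neighbours overlapped, except those of 6 h (up to 18.78) and 10 h (from 18.80). IER5 had 115.8, 64.8, 71.1, 64.3, 68.8 and 62.4 new CPM. Its 5 treated cultures could not be told apart by their intervals, and all lay between 53.9% and 61.4% of the 0 h level.

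**Figure D2:**
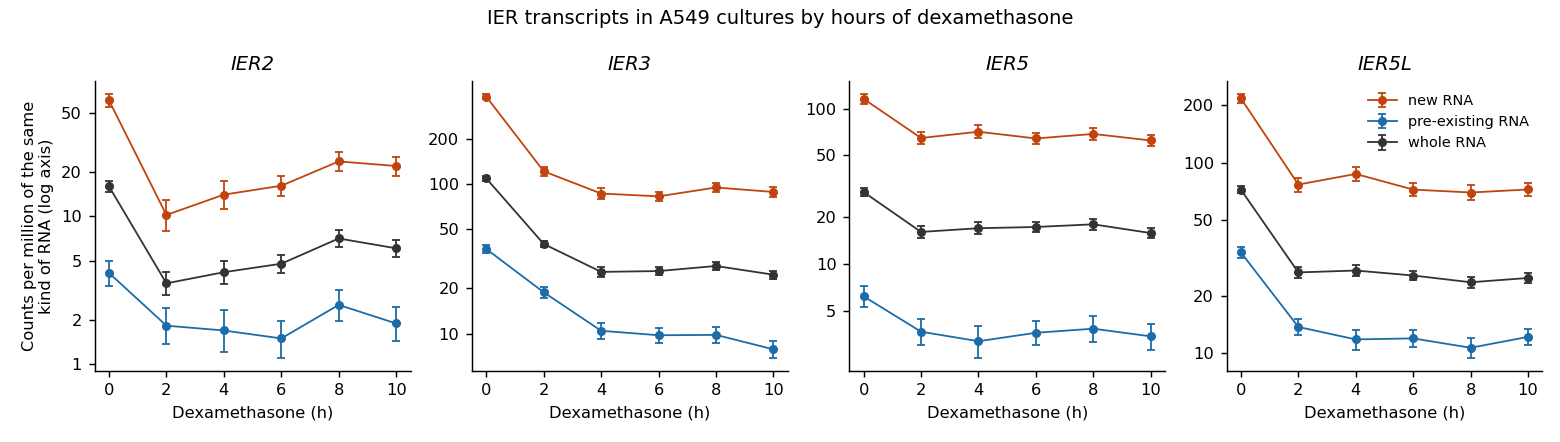
Counts of each IER gene per 1000000 counts of the same kind of RNA (CPM; y axis, log scale) by hours of dexamethasone (x axis) in new, pre-existing and whole RNA, with exact 95% Poisson intervals. All 5 treated cultures lie below the 0 h culture for every gene and kind of RNA, and new IER2 is lowest at 2 h, at 10.2 CPM.

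All 4 IER genes fell in new RNA after dexamethasone. The test was edgeR's quasi-likelihood test of the 5 treated cultures against the 0 h culture, with p-values adjusted by Benjamini-Hochberg over all genes and a threshold of 0.05. In it 2.18% of the 17507 genes tested fell. IER3 averaged 94.5 ± 15.5 new CPM in treated cultures (SD, n = 5) and had 381.8 CPM in the 0 h culture, a log2 fold of -1.95 ± 0.16 (SE, adjusted p = 0.00016 by edgeR). IER2 averaged 17.1 ± 5.49 new CPM in treated cultures (SD, n = 5) and had 60.5 CPM at 0 h, with a log2 fold of -1.74 ± 0.30 (adjusted p = 0.00939 by edgeR). IER5L averaged 75.7 ± 6.97 new CPM in treated cultures (SD, n = 5) and had 217.9 CPM at 0 h, with a log2 fold of -1.46 ± 0.11 (adjusted p = 0.000115 by edgeR). IER5 had the smallest fold of the 4 and fell to 66.3 ± 3.56 new CPM in treated cultures (SD, n = 5), against 115.8 CPM at 0 h, with a log2 fold of -0.74 ± 0.10 (adjusted p = 0.00276 by edgeR). The median log2 fold of all genes was 0.01. The spread comes from the treated cultures alone and also holds change over time, and treatment cannot be told apart from anything else that set the 0 h culture apart. In bulk sums, fewer cells with a transcript and less of it per cell cannot be told apart.

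**Figure D3:**
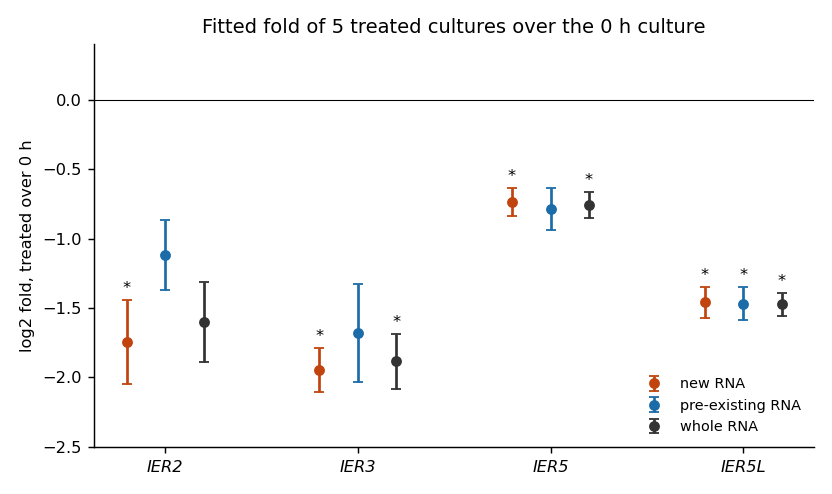
Fitted log2 fold of the 5 treated cultures over the 0 h culture (y axis) for each IER gene in new, pre-existing and whole RNA, with standard errors as bars. An asterisk marks an adjusted p under 0.05, reached by all 4 genes in new RNA, by IER3, IER5 and IER5L in whole RNA and by IER5L in pre-existing RNA.

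In whole RNA 3 of the 4 genes fell, where 0.275% of 22894 genes did. IER3 averaged 28.9 ± 6.13 CPM in treated cultures (SD, n = 5) and had 108.6 CPM at 0 h, with a log2 fold of -1.88 ± 0.20 (adjusted p = 0.0069 by edgeR). IER5L averaged 25.5 ± 1.42 CPM in treated cultures (SD, n = 5) and had 72.2 CPM at 0 h (log2 fold -1.47 ± 0.08, adjusted p = 0.000453 by edgeR). IER5 averaged 16.8 ± 0.898 CPM in treated cultures (SD, n = 5) and had 29.05 CPM at 0 h (log2 fold -0.76 ± 0.09, adjusted p = 0.015 by edgeR). That call was lost without the 4 h culture (adjusted p = 0.051) or the 6 h culture (adjusted p = 0.0595). Whole IER2 had 3.53, 4.19, 4.78, 7.08 and 6.07 CPM at 2, 4, 6, 8 and 10 h, and 15.9 CPM at 0 h. Its log2 fold of -1.60 ± 0.29 did not pass (adjusted p = 0.0584 by edgeR), and it passed with DESeq2, with no low-count filter and without the 2 h culture (adjusted p = 3.57e-05, 0.00602 and 0.00589).

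Pre-existing RNA of the 4 genes was also lower at every treated time. IER3 had 36.7, 18.9, 10.4, 9.74, 9.79 and 7.84 pre-existing CPM from 0 to 10 h. At 2 h its pre-existing RNA was at 51.4% of the 0 h level (46.2 to 57.2), while its new RNA was at 31.7% (29.4 to 34.3). In the 2 h culture labelling and dexamethasone covered the same hours. Apart from new molecules not called new, its pre-existing RNA was therefore made before treatment. From 4 h on pre-existing RNA can also have been made under dexamethasone, so the times are not like measures. At 4 h the values were 28.4% (24.6 to 32.8) and 22.5% (20.5 to 24.8). IER2 had 4.15, 1.83, 1.70, 1.499, 2.52 and 1.89 pre-existing CPM, from 39 to 110 counts per culture. At 2 h the pre-existing RNA of IER2 was at 44.1% of the 0 h level (31.1 to 61.8) and its new RNA at 16.9% (13.0 to 21.6). IER5L had 33.8, 13.7, 11.8, 11.9, 10.6 and 12.2 pre-existing CPM, and IER5 had 6.18, 3.65, 3.17, 3.60, 3.82 and 3.41.

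Of these differences only that of IER5L passed the test in pre-existing RNA, where 0.063% of 20624 genes fell (log2 fold -1.47 ± 0.12, adjusted p = 0.0112 by edgeR). It did not pass without the 4 h or the 6 h culture (adjusted p = 0.0795 and 0.0798). Without the 2 h culture IER3, IER5 and IER5L passed. The log2 folds of IER3, IER2 and IER5 were -1.68 ± 0.35, -1.12 ± 0.25 and -0.79 ± 0.15 (adjusted p = 0.356, 0.375 and 0.265 by edgeR). Whether new RNA fell by another factor than pre-existing RNA of the same cultures was tested in 1 model with a term for each culture. No gene passed it by edgeR (0% of 22440 genes, against 1216 at an unadjusted p under 0.05). DESeq2 called 9 positive and 10 negative differences, the fit with no low-count filter 128 and 55, and the fit without the 2 h culture 22 and 14. None of the 4 genes was among these, and DESeq2 gave IER2 no adjusted p. The log2 difference of the folds, new minus pre-existing, was -0.62 ± 0.30 for IER2 (adjusted p = 0.92 by edgeR), -0.21 ± 0.21 for IER3, 0.07 ± 0.17 for IER5 and 0.03 ± 0.15 for IER5L.

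Each transcript was counted in fewer cells in the treated cultures. IER3 was counted in 82.0% of 0 h cells and in 52.4%, 39.7%, 42.4%, 42.9% and 38.1% of cells at 2, 4, 6, 8 and 10 h. IER5L was counted in 37.7% to 44.0% of cells in treated cultures and 71.2% at 0 h, and IER5 in 30.8% to 37.4% of cells in treated cultures and 47.0% at 0 h. IER2 was counted in 33.8% of 0 h cells and in 9.17%, 10.1%, 12.5%, 18.0% and 14.7% at 2 to 10 h. Among cells with at least 1 count, the mean count of IER3 was 1.80 to 2.27 in treated cultures and 3.86 at 0 h, and that of IER2 was 1.14 to 1.17 in treated cultures and 1.37 at 0 h. The highest count in a cell was 10 to 19 for IER3 in treated cultures and 24 at 0 h. When every cell was thinned to 10000 counts, which leaves out 173 shallower cells (125 of them treated and 48 at 0 h), IER3 was counted in 19.1% to 28.0% of treated cells and 60.2% of 0 h cells, and IER2 in 2.82% to 7.32% of treated cells and 15.7% of 0 h cells. As a background, the human gene was counted in 0 to 3 of 3132 mouse cells of the mixture (0.0958% at most, median 7488 counts per cell). The human cells of the mixture held it in only 2.16% (IER5L) to 21.6% (IER5) of cells. Few stray counts were possible there, so these values do not bound the background in A549. Median depth in A549 was 25546 to 28193 whole counts per cell in treated cultures and 26628 at 0 h.

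Over the treated times new IER2 rose by 0.15 ± 0.03 log2 units per hour (SE, adjusted p = 0.00615 by edgeR, 5 cultures), where 3.55% of 16366 genes rose. Whole IER2 rose by 0.12 ± 0.03 per hour (adjusted p = 0.0183 by edgeR), where 6.1% of 21493 genes rose. The whole slope did not pass without the 2 h culture (0.11 per hour, adjusted p = 0.0962) or without the 4 h culture (adjusted p = 0.0526). Even at its highest treated level IER2 stayed under the 0 h culture, at 23.4 new CPM at 8 h against 60.5. The slopes of new IER3, IER5L and IER5 were -0.04 ± 0.02, -0.02 ± 0.01 and -0.01 ± 0.01 per hour and did not pass (adjusted p = 0.272, 0.422 and 0.860 by edgeR). The slope of whole IER3 was -0.06 ± 0.02 per hour (adjusted p = 0.0894 by edgeR), and it passed without the 4 h culture (-0.08, adjusted p = 0.0298) and with no low-count filter (adjusted p = 0.00714). Whether the slope of IER2 differs from those of the other members was not tested.

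Other immediate early genes did not move in 1 direction. The list of 54 further immediate early genes was written with earlier results of these data known. Of its 50 members tested in new RNA 15 rose and 9 fell, with a median log2 fold of 0.06 beside 0.01 for all genes. Of all genes 3.82% rose and 2.18% fell. The largest rises were those of ZFP36, which binds AU-rich elements and speeds mRNA decay (2.36 ± 0.14, adjusted p = 2.6e-05 by edgeR), ERRFI1, an inhibitor of the EGF receptor (2.01 ± 0.10), and DUSP1, a MAP kinase phosphatase (1.86 ± 0.15). ERRFI1 is also on the list of glucocorticoid-induced genes, as are NFKBIA (1.44 ± 0.13) and KLF6 (1.02 ± 0.16), which rose as well. The largest falls were those of FOSL1, an AP-1 subunit (-1.56 ± 0.12, adjusted p = 0.000124 by edgeR), NR4A3, an orphan nuclear receptor (-1.47 ± 0.31), and PLK2, a kinase (-1.44 ± 0.18). FOS, EGR1 and JUN did not pass (log2 folds 1.55 ± 0.67, -0.11 ± 0.58 and -1.18 ± 0.33). IER3 and IER2 had the lowest log2 folds of the 54 tested genes that the 4 and the list make together. Without the 6 h culture 13 rose and 5 fell in new RNA. In whole RNA 11 rose and 5 fell of 52, where 0.603% of all genes rose and 0.275% fell. These counts became 6 and 0 without the 6 h culture and 18 and 10 without the 2 h culture. Pre-existing RNA had 3 rises and 1 fall among 50, where 0.0533% of all genes rose and 0.063% fell, and had 0 of either without the 4 h, 6 h, 8 h or 10 h culture.

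**Figure D4:**
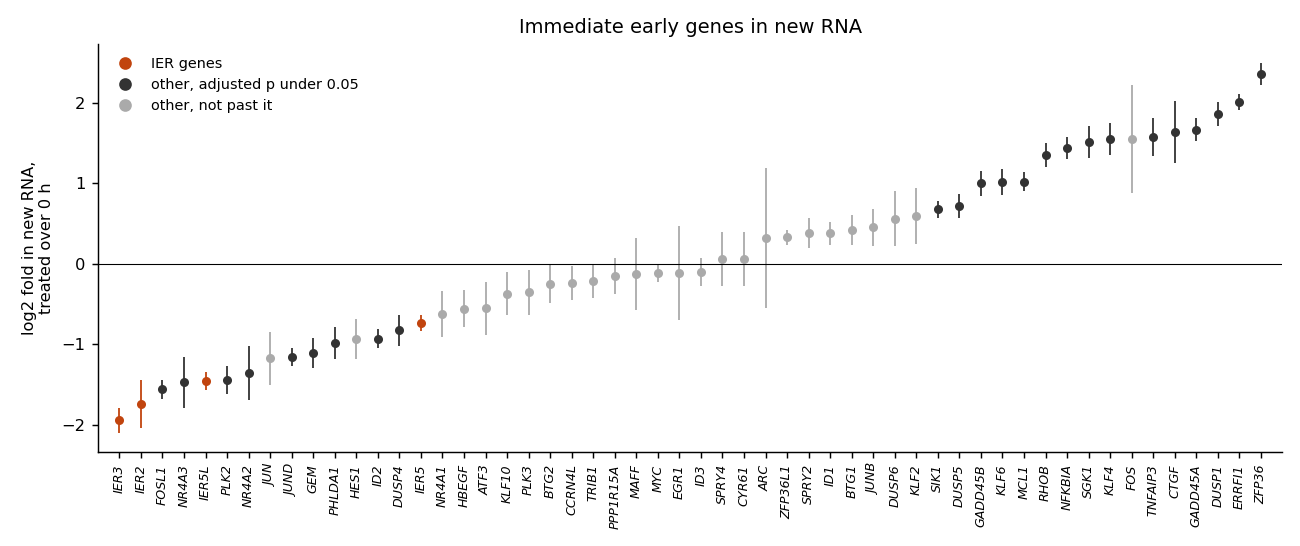
Fitted log2 fold in new RNA of the 5 treated cultures over the 0 h culture (y axis) with standard errors, for the 50 further immediate early genes tested and the 4 IER genes, in order of the fold (x axis). The IER genes lie between -1.95 and -0.74, and the ends of the axis are IER3 at the low end and ZFP36 at 2.36.

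Of 26 kinases, adaptors and transcription factors that act upstream of immediate early genes, 3 rose and 1 fell in new RNA, where 3.82% of all genes rose and 2.18% fell. The rises were those of MAP2K2, a kinase that activates ERK (0.72 ± 0.15, adjusted p = 0.0191 by edgeR), EGFR, a growth factor receptor (0.68 ± 0.13, adjusted p = 0.013), and MKL1, a cofactor of serum response factor (0.62 ± 0.09, adjusted p = 0.00427). RPS6KA3, a kinase downstream of ERK, fell (-0.43 ± 0.10, adjusted p = 0.044), a call that was lost in the deeper cells and without the 4 h, 6 h, 8 h or 10 h culture. The median of the 26 was 0.05. Of 16 partners and targets of IER5 and IER3, HSPB1, a small heat shock protein (1.56 ± 0.22), and MCL1, an anti-apoptotic protein (1.02 ± 0.12), rose in new RNA (adjusted p = 0.00336 and 0.00122 by edgeR). HSPA1A and HSPA1B, the inducible forms of Hsp70, fell (-0.96 ± 0.22 and -0.93 ± 0.20, adjusted p = 0.0311 and 0.023 by edgeR). HSPA1A and HSPA1B are near-identical copies, so counts may be split between them, and the list had 0 falls without the 4 h culture, 1 without the 8 h culture, and 4 rises and 4 falls without the 2 h culture. These are 2 rises and 2 falls among 16, beside the same 3.82% and 2.18% of all genes. MCL1 is on the immediate early list as well.

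New IER5 and IER5L were higher in cells with a high G2/M score than in the other cells of the same culture. The class is the 20% of cells of a culture with the largest share of whole counts from a list of 54 G2/M genes such as TOP2A, CDC20 and CENPF, which holds none of the 4 genes. It is a range of a score and not a cell type, and 156 to 186 cells per culture lay within 10% of the limit. From 0 to 10 h IER5 had 123.7, 82.9, 85.5, 85.9, 98.0 and 82.6 new CPM in this class, against 113.7, 60.2, 67.2, 58.4, 60.8 and 56.9 in the other cells. IER5L had 279.2, 99.2, 116.7, 81.2, 93.6 and 96.9 new CPM in the class, against 201.5, 71.0, 79.3, 69.8, 63.2 and 65.7 in the others. Both were higher in the class in 6 of 6 cultures, and over the treated cultures the class and the other cells did not overlap for either gene.

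In edgeR's quasi-likelihood test with a term for each culture, IER5 and IER5L rose in the high G2/M class in new RNA, where 12.4% of 14626 genes rose. The log2 differences were 0.47 ± 0.08 for IER5 (adjusted p = 5.06e-05 by edgeR) and 0.49 ± 0.06 for IER5L (adjusted p = 2.79e-06 by edgeR). Those of IER2 and IER3 were 0.18 ± 0.12 and 0.13 ± 0.07 and did not pass (adjusted p = 0.311 and 0.166 by edgeR). IER3 was higher in the class in 5 of 5 treated cultures and lower at 0 h (340.1 new CPM in the class against 392.9), and passed without the 0 h culture (0.23, adjusted p = 0.0145). In whole RNA IER5 (0.42 ± 0.07), IER5L (0.40 ± 0.05) and IER3 (0.22 ± 0.06) rose, where 18.3% of 19089 genes did (adjusted p = 7.78e-05, 1.4e-05 and 0.0101 by edgeR). The IER3 call was lost without the 2 h culture (0.15, adjusted p = 0.0584) and with total counts in place of TMM (0.15, adjusted p = 0.0774). Whole IER2 had a difference of 0.01 ± 0.11. Cells of the class were deeper, with medians of 28119 to 34668 whole counts by culture against 24938 to 27776 in the others. Within the 3702 deeper cells the differences in new RNA were as large, at 0.62 ± 0.08 for IER5 and 0.62 ± 0.08 for IER5L.

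New IER5 and IER5L were lower in the treated cells with the lowest score for the response to dexamethasone. This class, called weak cells here, is the 20% of cells of a culture with the lowest share of new counts from the 40 glucocorticoid-induced genes. It is again a range of a score, with 151 to 253 cells per treated culture within 10% of the limit. Its median share was 0.54% to 0.61% in treated cultures. At 0 h the share was 0.11% in the class and 0.24% in the other cells, so weak is meant relative to the same culture. From 2 to 10 h IER5 had 44.7, 51.7, 55.3, 63.5 and 53.9 new CPM in weak cells, against 70.3, 76.6, 66.9, 70.4 and 64.8 in the others. IER5L had 65.8, 74.1, 55.3, 57.1 and 60.7 new CPM in weak cells, against 79.8, 91.0, 77.2, 73.5 and 75.6 in the others. Both were lower in 5 of 5 treated cultures, by -0.36 ± 0.08 for IER5 and -0.35 ± 0.07 for IER5L (adjusted p = 0.00374 and 0.00123 by edgeR), where 10.3% of 14474 genes fell. Whole RNA was not tested in this class, and its differences were smaller. The log2 ratio of whole IER5 ran from -0.38 to 0.10, with 1 of 5 treated cultures higher in weak cells, against -0.65 to -0.15 in new RNA. For IER5L it ran from -0.31 to -0.02, against -0.48 to -0.28 in new RNA.

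The same direction was seen in the 0 h culture, which had no dexamethasone. There IER5 had 99.3 new CPM in the cells with the lowest score and 120.4 in the others, and IER5L had 173.0 and 230.4. At 0 h it was not particular to these 2 genes. IER3 had 274.3 new CPM in the cells with the lowest score and 411.6 in the others, and IER2 had 52.6 and 62.7. Over the treated cultures the IER5 difference did not pass when the class held 10% or 50% of cells (-0.32, adjusted p = 0.0674, and -0.12, adjusted p = 0.236). New IER2 and IER3 differed by -0.02 ± 0.15 and 0.04 ± 0.08 between the classes of the treated cultures, with cultures on both sides of 0. Weak cells of treated cultures had medians of 5647 to 6826 new counts, against 4819 to 6045 in the others. The part of this depth in the result was not tested beyond the deeper cells, where the differences were -0.44 ± 0.11 for IER5 and -0.53 ± 0.10 for IER5L. Of 1251 weak treated cells 22.5% were also in the high G2/M class, against 19.4% of the other treated cells.

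**Figure D5:**
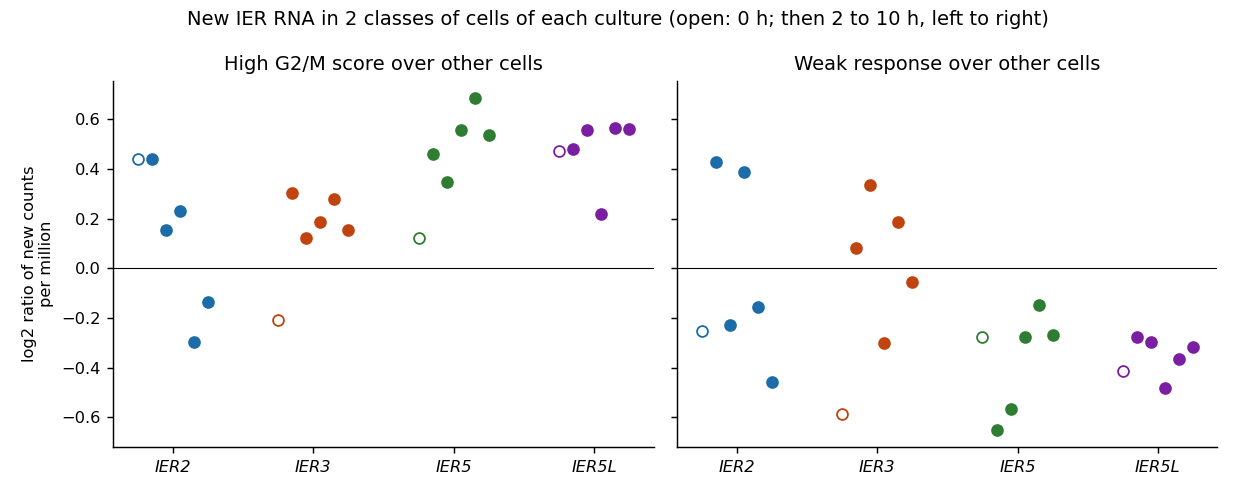
Log2 ratio of new CPM (y axis) in cells with a high G2/M score over the other cells of the culture (left) and in cells with the lowest glucocorticoid-response score (weak response) over the other cells (right), for each IER gene. Each point is 1 culture, the open one at 0 h, and IER5 and IER5L lie above 0 in 6 of 6 cultures on the left and below 0 in 6 of 6 on the right.

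In the mixture the genes were measured at lower depth. In HEK293T cells given S4U and iodoacetamide, IER5 had 71.3% new counts (64.2 to 77.6, 188 whole counts), IER2 70.2% (56.6 to 81.6, 57 counts), IER3 70.6% (52.5 to 84.9, 34 counts) and IER5L 50.0% (23.0 to 77.0, 14 counts), with 54.7% over all human genes. In labelled NIH/3T3 cells mouse Ier5 had 71.7% (63.8 to 78.7, 152 counts), Ier3 50.5% (40.7 to 60.2, 109 counts), Ier2 41.2% (30.4 to 52.8, 80 counts) and Ier5l 38.3% (29.1 to 48.2, 107 counts), with 33.1% over all mouse genes. Ier5 was the highest of the 4 in these mouse cells, as IER5 was in A549, while the HEK293T intervals of all 4 genes overlapped. Without iodoacetamide or without S4U, new shares of these genes ran from 0% to 2.79% in both lines. These shares follow 6 h of labelling and those of A549 follow 2 h, so they are not compared with each other. No A549 cells without the label were used here. The human annotation of the mixture lists IER3 in 5 further rows, which held 0 counts.

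The 4 genes were alike in the shape of their levels over the 6 cultures to different degrees. Pearson's r of log2 new CPM was 0.98 for IER5 and IER5L, 0.96 for IER3 and IER5L, 0.95 for IER3 and IER5, 0.85 for IER2 and IER5, 0.80 for IER2 and IER5L and 0.78 for IER2 and IER3. The points are 6 cultures that share their libraries and a high 0 h value, so r is a description only. It does not depend on the size of a change. Among 8646 genes with at least 100 new counts in the lowest culture, the 3 most like IER2 were FBXO11 (r = 0.998), a ubiquitin ligase subunit, CSRP1 (0.997), a LIM domain protein, and MYO18A (0.994), a myosin. FBXO11 differed far less in size than IER2, with 405.0 to 428.3 new CPM in treated cultures and 451.5 at 0 h. IER2 had 10.2 to 23.4 and 60.5. CSRP1 had 70.2, 34.3, 38.4, 42.8, 49.1 and 47.2 new CPM from 0 to 10 h. Nearest to IER3 were COPZ1 (0.999), a coatomer subunit, AHCYL1 (0.997), which binds the IP3 receptor, and LIAS (0.995), the lipoic acid synthase. COPZ1 had 79.3 to 83.2 new CPM in treated cultures and 94.8 at 0 h. Nearest to IER5 were RIT1 (0.999), a Ras-like GTPase, ZNF445 (0.997), a zinc finger protein, and EFTUD2 (0.995), a splicing GTPase. Nearest to IER5L were IRF2 (0.9998), a transcription factor, MED10 (0.998), a Mediator subunit, and BTBD7 (0.997). IRF2 had 23.0 to 24.2 new CPM in treated cultures and 29.2 at 0 h.

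Antisense genes overlap 3 of the 4 genes in GENCODE 29, and since the sources used here do not give the strand used in counting, reads of a gene and its antisense partner cannot be told apart. IER3-AS1 held 182 whole counts against 8913 for IER3. For IER5L 2 antisense genes held 140 and 86 counts against 7073, and for IER2 1 held 7 against 1478. None overlaps IER5.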

How the data were processed

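The deposited A549 and mixture matrices give unnormalized counts, 1 matrix for all RNA and 1 for RNA that the authors called newly synthesised. The fraction of new RNA and the doublet score that the authors deposited per cell were not used. Trim Galore 0.4.1, STAR 2.5.2b, SAMtools 1.3, Picard 1.105 and the hg19 and mm10 builds are named in the submitters' processing notes. The sources used here do not give how molecules were collapsed and called new. Members and gene lists were chosen with earlier results of these data known.

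All 7404 A549 cells were used (median 27080.5 whole and 5539 new counts), and no cell was removed as a doublet here. Counts were summed per culture, and per culture and class, and tested in edgeR 4.0.16 (R 4.3.3; quasi-likelihood, TMM, filterByExpr with a minimum of 10, Benjamini-Hochberg at 0.05), with 4 residual degrees of freedom for treated against 0 h and 3 for the slope. A class was tested with the culture as a block. Tests were checked on simulated counts, drawn independently for each column with a fixed dispersion. These hold no culture effect shared by the classes and no drift over the treated times beyond the effect tested. The check therefore does not cover those features of the data. DESeq2 1.42.0 was an alternative. P-values measure the spread between these cultures, and the 0 h culture, being alone, takes the spread of the treated ones. Level, share and ratio intervals are exact (95%) and cover counting error only. Members are named by symbol, with the 3 genes most like each and the 3 largest rises and falls of each list. Transcripts come from GENCODE 29, of another build than the counts, so no coordinates are given.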

Additional observations from a re-analysis of the deposited data

Results flagged for a closer look

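Of 16 sets of 5 treated cultures tested for a value far from the others (4 genes in new, pre-existing and whole RNA and in new share), 2 had one, and chance gives about 1 in 20 per set. The sets are not independent, since whole counts hold the new and the pre-existing ones. Both flags are IER3 in the 2 h culture, so they are not separate results. Whole IER3 stood at 39.6 CPM in the 2 h culture, above 24.7 to 28.3 CPM in the other treated cultures. Pre-existing IER3 stood at 18.9 CPM in the 2 h culture, above 7.84 to 10.4 CPM in the others.

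IER3 moved one way in every treated culture and the other way at 0 h in 3 class comparisons. These differences were not tested. In the high G2/M class the log2 ratio of new IER3 to the other cells was 0.12 to 0.30 in treated cultures and -0.21 at 0 h, and that of whole IER3 was 0.07 to 0.47 in treated cultures and -0.12 at 0 h. In the class with the lowest glucocorticoid-response score the log2 ratio of whole IER3 was 0.04 to 0.45 in treated cultures and -0.38 at 0 h. There is 1 culture at 0 h.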

How the results depend on the processing

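New RNA of all 4 genes passed under each of the 10 alternatives, with log2 folds of -2.05 to -1.90 (IER3), -1.88 to -1.61 (IER2), -1.53 to -1.43 (IER5L) and -0.81 to -0.72 (IER5). In whole RNA 3 genes passed, and 2 to 4 when 1 culture was left out. In pre-existing RNA 1 gene passed, 2 with no low-count filter, 2 with DESeq2, and 0 to 3 when 1 culture was left out. The slope in whole RNA passed for 1 gene (IER2), 2 with no low-count filter (IER3 was added), and 0 to 1 when 1 treated culture was left out, with IER3 in place of IER2 without the 4 h culture. The weak response class had 2 genes, and 1 with a class of 10% or of 50%. The culture is the replicate block of the class tests: with no replicate block 0 genes passed in the high G2/M class in new and 0 in whole RNA, against 2 and 3 with it, and the weak class kept IER5 and IER5L.

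Sign changes were all in differences that passed under neither setting. New minus pre-existing folds of IER5 and IER5L became -0.0067 and -0.045 with DESeq2 size factors, -0.0059 and -0.044 with total counts, and -0.0052 and -0.044 with DESeq2; leaving out a culture gave 0.0077 to 0.089 for IER5 and -0.032 to 0.073 for IER5L. New slopes without 1 culture ran from -0.058 to 0.018 for IER3 and -0.020 to 0.0079 for IER5, and the whole slope of IER5 from -0.012 to 0.026, with -0.0035 in deeper cells. In the high G2/M class new IER2 was at -0.020 in deeper cells, and whole IER2 at -0.065 with total counts, -0.038 with no low-count filter, -0.013 with DESeq2, -0.145 in deeper cells, -0.010 with a class of 50% and -0.127 to 0.053 without 1 culture. In the weak class IER2 was at 0.163 in deeper cells, 0.179 with a class of 10% and -0.155 to 0.112 without 1 culture, and IER3 at -0.033 with no low-count filter, -0.057 with a class of 50% and -0.018 to 0.128 without 1 culture. The causes were not tested.

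Calls over all genes moved more. With total counts in place of TMM, 583 genes rose and 509 fell in new RNA, against 669 and 381, and 2275 rose and 4967 fell in whole RNA of the high G2/M class, against 3487 and 3089. Treated against 0 h, whole RNA had 138 rises and 63 falls, 560 and 232 with DESeq2, 302 and 149 with no filter, 931 and 669 without the 2 h culture, and 57 and 18 without the 6 h culture. New RNA had 1176 and 846 without the 2 h culture and 428 and 201 without the 6 h culture. Pre-existing RNA had 11 and 13, 132 and 48 with DESeq2, and 463 and 304 without the 2 h culture. Depth limits IER2 most: its pre-existing counts were 39 to 110 per culture.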
